A study of Rattus norvegicus with 8 samples.

Results

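The genes here come from families that load synaptic vesicles with neurotransmitter, dock and fuse them at the presynaptic active zone and retrieve their membrane. Whether each of these genes acts in release was not tested. They were chosen as a list of 55 symbols from 6 functional groups, and 54 of them were measured, through 115 of the 25353 array features that carry 1 gene symbol. Cadps2, which encodes a priming factor of dense-core vesicles, had no named feature. The 54 genes are part of 14871 named genes.

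The study measured hippocampal RNA of male Wistar rats, 13 weeks of age, in 2 groups of 4 pools. Rats of the ICSS (intracranial self-stimulation) group carried an electrode aimed at the lateral hypothalamus and self-administered 2500 stimulation trains after 2 days of training, and rats of the Sham group carried an electrode too but spent a 40 min session in the same box without current. Each pool joined hippocampi of 3 rats from the side of the electrode, so the spread between rats within a pool is not seen. Cy5 marked the pool and Cy3 a common reference of brain tissue from both groups on each 2-colour array, with no dye swap, and every level below is a log2 ratio of pool over reference. The labels of the reference name hippocampus, thalamus and cortex from the side opposite the electrode, whereas the design text names hippocampus of the electrode side alone. Medians of the 8 arrays ran from -0.032 to 0.016, and the arrays correlated at r = 0.586 to 0.873, with Sham replicate 4 giving the lowest of these correlations. Neurod6, a marker of hippocampal pyramidal neurons, stood at 1.77 ± 0.21 over the ICSS pools and 1.69 ± 0.20 over the Sham pools (± SD, n = 4 each), and Slc17a6, the vesicular glutamate transporter of thalamic neurons, at -2.54 ± 0.42 over the ICSS pools and -2.57 ± 0.51 over the Sham pools (± SD, n = 4 each). The number of arrays limits the precision, spot intensities were not used here, and in tissue RNA fewer cells of a type and less RNA per cell cannot be told apart.

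In a presynaptic terminal, vesicles are loaded with transmitter, tethered by synapsins and brought to the active zone by Rab3 proteins and the scaffolds RIM, Bassoon and Piccolo. Munc13 proteins prime them, the SNARE proteins synaptobrevin, syntaxin and SNAP-25 pull the membranes together, and synaptotagmins trigger fusion when calcium enters. The SNARE complex is then taken apart by NSF with its SNAP adaptors, and dynamin, amphiphysin, endophilin and synaptojanin recover the membrane. In the hippocampus this machinery serves mainly glutamatergic pyramidal and granule cells, and a smaller number of GABAergic interneurons.

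Against the common reference the machinery did not stand on one side. The mean log2 ratio was above 0 for 30 of 54 genes in ICSS and for 33 of 54 in Sham pools, with medians of 0.10 in ICSS and 0.11 in Sham pools. Over all named genes these medians were -0.015 in ICSS and -0.024 in Sham pools. Ratios to the reference are given as levels only, since the reference is a single mixed RNA.

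The highest of the 54 in Sham pools was Slc17a7, which encodes the vesicular glutamate transporter VGLUT1 of cortical and hippocampal neurons, at 0.57 ± 0.14 over the ICSS pools and 0.76 ± 0.12 over the Sham pools (± SD, n = 4 each). Napa, encoding alpha-SNAP, followed with 0.46 ± 0.094 over the ICSS pools and 0.68 ± 0.13 over the Sham pools (± SD, n = 4 each). Rimbp2, which encodes a link between RIM and calcium channels, stood at 0.65 ± 0.100 over the ICSS pools and 0.59 ± 0.10 over the Sham pools (± SD, n = 4 each). Dnm1, the gene of neuronal dynamin, and Syn2, the gene of synapsin II, came next, at 0.34 and 0.42 in ICSS and 0.52 and 0.51 in Sham pools. Neighbours among these 5 differed by less than the larger of their SDs over the Sham pools.

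At the other end Syt2, encoding a fast calcium sensor, had -1.29 ± 0.074 over the ICSS pools and -1.24 ± 0.22 over the Sham pools (± SD, n = 4 each). Unc13c, encoding Munc13-3, a priming factor best known from the cerebellum, stood at -1.52 ± 0.14 over the ICSS pools and -1.07 ± 0.13 over the Sham pools (± SD, n = 4 each). Stx1a, the syntaxin 1A gene, had -1.004 ± 0.075 over the ICSS pools and -0.89 ± 0.16 over the Sham pools (± SD, n = 4 each), and its 10 features lay between -0.96 and -0.79 in Sham pools. Doc2a and Rab3b followed, at -0.74 and -0.71 in ICSS and -0.69 and -0.56 in Sham pools. Members of 1 gene family thus lay far apart: Unc13a, the main priming factor of excitatory synapses, was at 0.13 in ICSS and 0.21 in Sham pools, and Syt1, the fast calcium sensor of forebrain synapses, at 0.149 in ICSS and 0.155 in Sham pools, whereas Syt2 and Unc13c were far below 0.

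**Figure D1:**
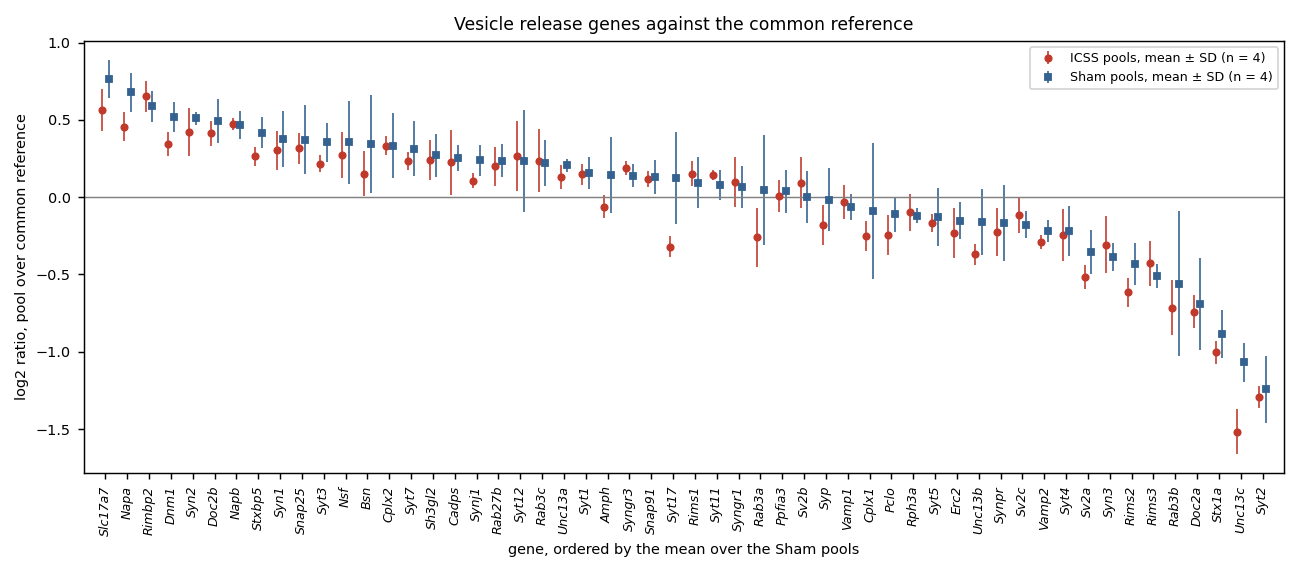
Mean log2 ratio of each of the 54 genes to the common reference in ICSS (circles) and Sham pools (squares), with bars of 1 SD over 4 pools, ordered by the Sham mean. Slc17a7 and Napa lead in the Sham pools, Unc13c and Syt2 come last, and Unc13c lies lower in ICSS than in Sham pools by more than both SDs.

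The comparison of ICSS with Sham asked whether expression of this machinery differed after self-stimulation and the training before it. Training, responding and current are joined in the ICSS group and cannot be told apart. No member passed the threshold of 0.05 for the limma p adjusted over all 34738 units (named genes and unnamed probes), in either direction. Over all units 16 passed, or 0.0461%. At an unadjusted limma p below 0.05, 7 of 54 members (13.0%) were found, all 7 with the lower mean in ICSS pools, against 13.1% of named genes (6.36% lower and 6.79% higher). The groups did not overlap in 2 of 54 members (3.70%), Unc13c and Syt17, both lower in ICSS pools, against 8.98% of named genes (4.32% lower and 4.66% higher). With both directions counted, neither share was larger among the members than among named genes. The share with the lower mean at an unadjusted p below 0.05 was larger, at 13.0% of members against 6.36% of named genes, and none of the members was on the higher side. This difference in shares was not tested.

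Differences were small and mostly negative. The mean was lower in ICSS pools for 40 of 54 members (74.1%), against 47.4% of named genes, or for 41 members against 52.1% of named genes when each array was centred on its median. The median difference, ICSS minus Sham, was -0.064 on the log2 scale over the members and 0.0069 over all named genes. In 48 of 54 members the difference was under 0.2 in size. The limma 95% interval of the difference lay within a 1.5-fold change in both directions for 50 members, all but Unc13c, Syt17, Rab3a and Rab3b.

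The size of the shared shift depended on single control pools. The mean over the 54 members was -0.028, -0.041, -0.084 and -0.029 in ICSS replicates 1 to 4 and -0.061, -0.017, 0.081 and 0.13 in Sham replicates 1 to 4. The ICSS pools lay close together, within the range of the Sham pools except for ICSS replicate 3, and Sham replicates 3 and 4 lay above every other pool. The difference of these means was -0.079, from -0.045 ± 0.026 over the ICSS pools and 0.034 ± 0.089 over the Sham pools (± SD, n = 4 each). Without Sham replicate 4 the Sham mean was 0.00085 ± 0.073 (SD, n = 3) and the difference -0.046. The median difference over the members was then -0.018, with 30 of 54 members lower (55.6%, against 48.2% of named genes) and 3 members at an unadjusted limma p below 0.05 (5.56%, against 10.2% of named genes). Groups did not overlap in 3 members then (5.56%, against 11.8% of named genes). Sham replicate 1 pulled the other way, since without it the median difference was -0.10.

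**Figure D2:**
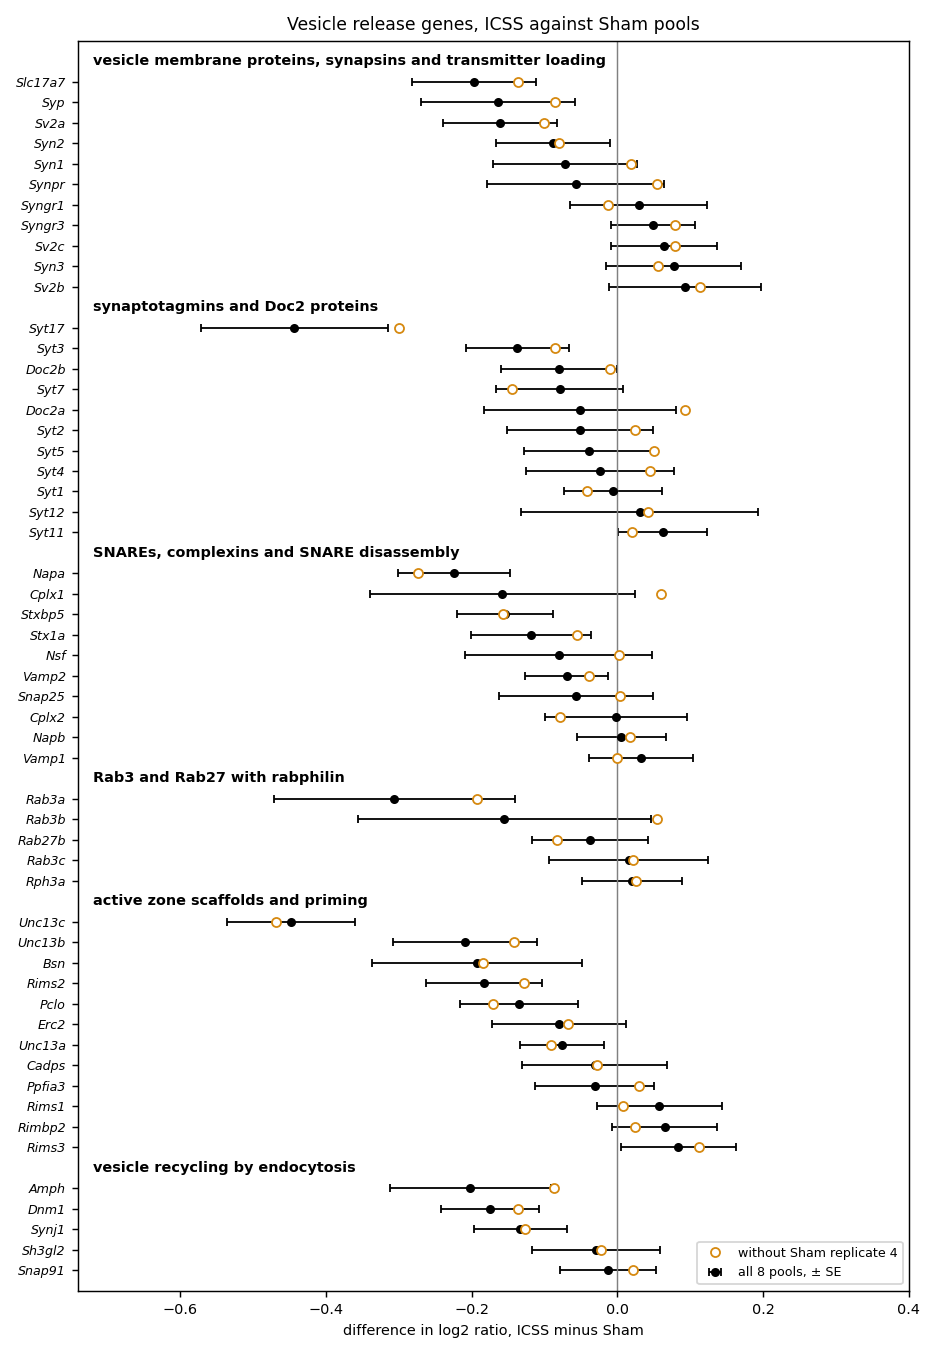
Difference in log2 ratio, ICSS minus Sham, for the 54 genes in their 6 role groups. Filled points with bars show the difference ± SE from all 8 pools, and open circles the difference without Sham replicate 4. Unc13c and Syt17 lie farthest to the left, and in 12 genes the sign turns from negative to positive without that pool.

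Sham replicate 4 had the highest of the 8 values in 24 of 54 members (44.4%), against 19.4% of named genes, and the lowest in 7 members (13.0%), against 21.3% of named genes. Sham replicates 3 and 4 both lay above Sham replicates 1 and 2 in 29 members (53.7%), against 25.6% of named genes. Marker lists moved in the same pool. All 10 measured of 11 oligodendrocyte and myelin markers had their lowest value in Sham replicate 4, with a list mean of -0.72 there, against -0.065 to 0.11 in the other Sham pools, while the ICSS pools lay between -0.18 and 0.43. Interneuron markers (12 of 13 measured, none of them a member) had a mean of -0.13 in Sham replicate 4, against -0.52 to -0.35 in the other Sham pools, while the ICSS pools lay between -0.45 and -0.29. Only 6 of the 12 had their highest value in Sham replicate 4. Gad1, which encodes the GABA-synthesising enzyme, was at 0.23 in that pool, against -0.45 to -0.15 in the other Sham pools, and Mbp, the myelin basic protein gene, at -1.27, against -0.55 to -0.37. General neuronal genes (15 of 15 measured) had means of -0.15 to -0.047 over the ICSS pools, against -0.18 to 0.040 over the Sham pools, with Sham replicate 4 the highest. Markers of hippocampal neurons (16 of 18 measured) had means of 0.53 to 0.68 over the ICSS pools, against 0.69 to 0.81 over the Sham pools. Unlike the mean of the members, this list did not overlap between groups. The margin was narrow, with ICSS replicate 4 at 0.680 and Sham replicate 4 at 0.693. Of the 16 markers 7 had the higher mean in ICSS pools, and the median difference was -0.041. Thalamic markers (14 of 15) ranged from -0.82 to -0.57 across ICSS pools, against -0.93 to -0.79 across Sham pools. Neocortical markers (7 of 10) ranged from -0.22 to -0.099 across ICSS pools, against -0.17 to -0.049 across Sham pools. Choroid plexus and ependymal markers (9 of 9) ranged from -0.40 to 0.26 across ICSS pools, whereas Sham replicate 4 was at -0.99 and Sham replicate 1 at 0.72. Microglial markers (11 of 11) ranged from -0.41 to 0.16 across ICSS pools, against -0.45 to 0.39 across Sham pools. Astrocyte markers (9 of 9) ranged from -0.14 to 0.10 across ICSS pools, against -0.14 to -0.0038 across Sham pools. Endothelial and mural markers (11 of 11) ranged from -0.26 to 0.024 across ICSS pools, against -0.33 to -0.15 across Sham pools. The part of these lists in the member values was not tested.

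**Figure D3:**
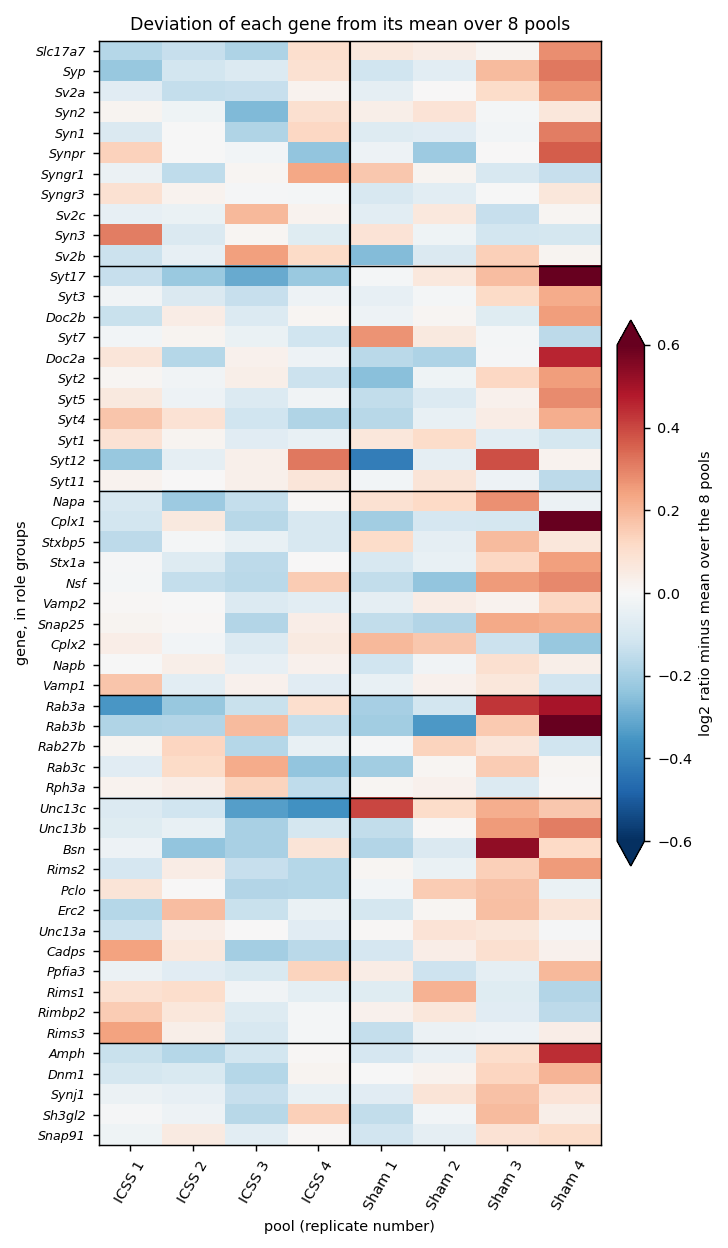
Log2 ratio of each gene in each pool minus its mean over the 8 pools, with ICSS pools on the left and Sham pools on the right, and lines between the 6 role groups. The column of Sham replicate 4 holds the highest value in 24 of the 54 genes, with Cplx1, Rab3b and Syt17 the deepest, and values beyond the colour scale are drawn at its end.

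Among vesicle membrane proteins, synapsins and the glutamate transporter, 6 of 11 genes had the lower mean in ICSS pools, with a median difference of -0.058. Slc17a7 stood at 0.49, 0.52, 0.48 and 0.77 in ICSS pools, against 0.73, 0.71, 0.67 and 0.94 in Sham pools. ICSS replicate 4 lay among the Sham pools and the other 3 ICSS pools below all of them. The difference was -0.20 (SE 0.085, limma adjusted p = 0.380), or -0.14 without Sham replicate 4, and its 2 features disagreed in size, with differences of -0.345 and -0.049. Sv2a, encoding a vesicle glycoprotein that is the target of the anti-seizure drug levetiracetam, differed by -0.16 (SE 0.078, limma adjusted p = 0.427). Syp, the synaptophysin gene, differed by -0.16 (SE 0.11, limma adjusted p = 0.552). Syn1, the synapsin I gene, differed by -0.072 (SE 0.099, limma adjusted p = 0.793). Syn1 was at 0.64 in Sham replicate 4, against 0.26 to 0.32 in the other Sham pools and 0.16 to 0.46 in ICSS pools, and without that pool its difference was 0.018. The median over the 11 genes was also above 0, at 0.018, without that pool.

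In the synaptotagmin and Doc2 group 9 of 11 genes had the lower mean in ICSS pools, with a median difference of -0.051. Syt17, a member of the family without a transmembrane segment, had log2 ratios of -0.24, -0.32, -0.40 and -0.32 in ICSS pools, against -0.11, -0.037, 0.085 and 0.56 in Sham pools. All ICSS pools lay below all Sham pools, which themselves spread widely, with Sham replicate 4 highest. The difference was -0.44 (SE 0.13, limma adjusted p = 0.217), with -0.67 and -0.21 for its 2 features, and -0.30 (limma adjusted p = 0.248) without Sham replicate 4. Syt3, a calcium-binding synaptotagmin, differed by -0.14 (SE 0.071, limma adjusted p = 0.456). Syt1 was level between groups, at -0.0060 (SE 0.067), with a limma 95% interval of -0.16 to 0.14. Of its 12 features 7 were lower and 5 higher, between -0.064 and 0.029. Syt11, which does not bind calcium, differed by 0.062 (SE 0.061, limma adjusted p = 0.700). Without Sham replicate 4 the median of the group was 0.020 and 5 of 11 genes were lower.

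**Figure D4:**
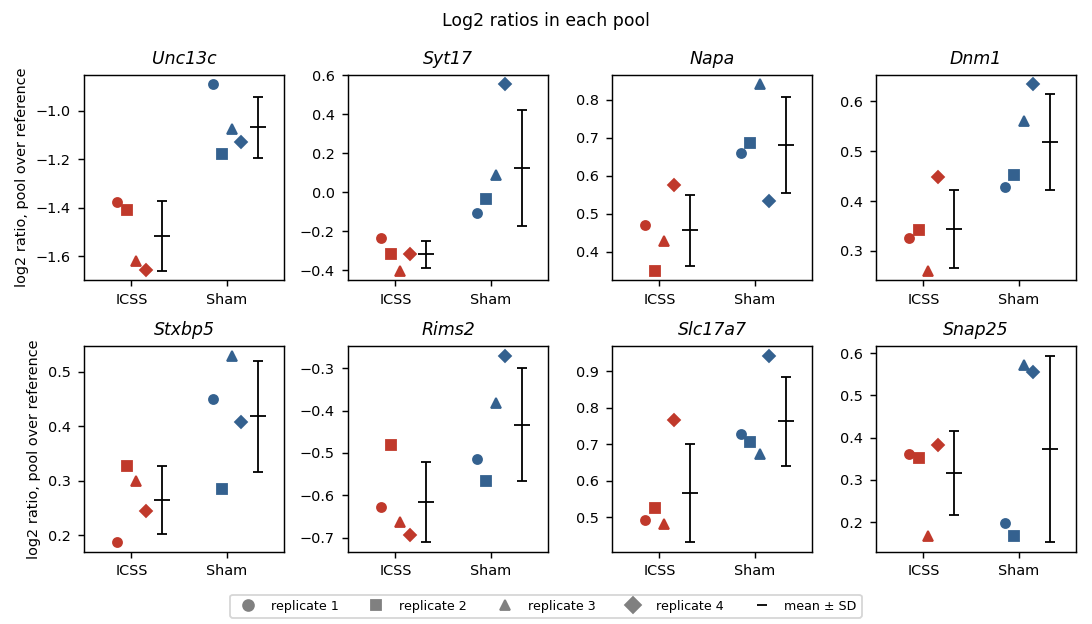
Log2 ratio to the reference in each ICSS (left) and Sham pool (right) for the 7 genes with an unadjusted limma p below 0.05 and for Snap25, with the mean ± SD beside each group and marker shapes for replicate numbers. The groups are apart for Unc13c and Syt17 and overlap for the other 6 genes.

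The SNARE group held 8 of 10 genes with the lower mean in ICSS pools, at a median difference of -0.075. Napa stood at 0.47, 0.35, 0.43 and 0.58 in ICSS pools, against 0.66, 0.69, 0.84 and 0.53 in Sham pools. Only Sham replicate 4 and ICSS replicate 4 crossed over. The difference was -0.22 (SE 0.077, limma adjusted p = 0.291), and it was larger without Sham replicate 4, at -0.27 (limma adjusted p = 0.283). Stxbp5, encoding tomosyn, which holds syntaxin and SNAP-25 in inactive complexes, was at 0.19, 0.33, 0.30 and 0.24 in ICSS pools, against 0.45, 0.29, 0.53 and 0.41 in Sham pools. Here Sham replicate 2 lay among the ICSS pools, and the difference was -0.15 (SE 0.066, limma adjusted p = 0.376).

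The genes of the SNARE complex itself are Snap25, Stx1a and Vamp2. Snap25 was at 0.36, 0.35, 0.17 and 0.38 in ICSS pools, against 0.20, 0.17, 0.57 and 0.56 in Sham pools, with Sham replicates 3 and 4 above every ICSS pool and Sham replicates 1 and 2 inside the ICSS range, near its lowest pool. Its difference was -0.057 (SE 0.11, limma 95% interval -0.29 to 0.18), with 9 of 12 features, annotated to 3 sequences, lower. Stx1a differed by -0.12 (SE 0.082, limma adjusted p = 0.578), with all 10 features, annotated to 1 transcript, lower. Vamp2, the synaptobrevin 2 gene, differed by -0.070 (SE 0.057, limma adjusted p = 0.644), and its 4 features, which stood between -0.55 and 0.13 in Sham pools, differed by -0.19 to 0.0066. Cplx1, encoding a complexin that clamps the assembled SNARE complex, was at 0.56 in Sham replicate 4, against -0.38 to -0.27 in the other Sham pools and -0.34 to -0.11 in ICSS pools. Its difference of -0.16 (SE 0.18) was 0.060 without that pool.

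The promoters of the members were searched for the cyclic AMP response element, the palindrome TGACGTCA bound by CREB family factors, which act downstream of neuronal activity. Of 42 RefSeq promoters listed for 41 members, 4 (9.52%) held it within the 250 bases before the start, against 2.31% of the promoters of named genes on the array and 1.59% of all promoters in the table. The shorter motif TGACG, which the palindrome contains on both strands, was found in 12 of 42 member promoters (28.6%), against 23.6% for named genes and 18.2% for all. These differences in shares were not tested, and that of the full element rests on 4 promoters. The 4 windows of 80 bases are shown because they hold the full element, in capitals. In GRCr8, all on the + strand, they lie at chr1:85915340-85915419 for Napa, chr5:104699168-104699247 for Sh3gl2, chrX:3725519-3725598 for Syn1 and chr4:159698787-159698866 for Vamp1.
Napa: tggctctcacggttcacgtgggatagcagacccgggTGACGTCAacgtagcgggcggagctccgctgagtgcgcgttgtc
Sh3gl2: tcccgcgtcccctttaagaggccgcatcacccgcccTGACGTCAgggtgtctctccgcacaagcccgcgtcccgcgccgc
Syn1: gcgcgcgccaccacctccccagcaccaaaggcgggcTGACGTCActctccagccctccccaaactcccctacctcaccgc
Vamp1: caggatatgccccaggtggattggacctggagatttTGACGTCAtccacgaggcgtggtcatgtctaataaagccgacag
The element began 59 bases before the start in Napa, 66 in Sh3gl2, 71 in Vamp1 and 190 in Syn1. ICSS minus Sham was -0.22 for Napa, -0.030 (SE 0.088) for Sh3gl2, encoding endophilin A1, -0.072 for Syn1 and 0.032 (SE 0.071) for Vamp1, encoding synaptobrevin 1. None of the 4 passed the threshold.

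Of the 5 genes of Rab3, Rab27 and rabphilin, 3 had the lower mean in ICSS pools, with a median difference of -0.038. Rab3a, encoding the main vesicle GTPase of this family, stood at -0.46, -0.34, -0.24 and -0.0054 in ICSS pools, against -0.31, -0.22, 0.32 and 0.39 in Sham pools. Sham replicates 3 and 4 lay above every other pool and Sham replicates 1 and 2 among the ICSS pools. The difference was -0.31 (SE 0.17, limma adjusted p = 0.476), or -0.19 without Sham replicate 4. Rab3b, a related GTPase, was at 0.070 in Sham replicate 4, against -0.98 to -0.48 in the other Sham pools and -0.82 to -0.45 in ICSS pools. Its difference of -0.16 (SE 0.20) turned to 0.054 without that pool, and its 2 features gave -0.156 and -0.155. Rab27b, whose product also sits on vesicles, differed by -0.038 (SE 0.080, limma adjusted p = 0.874). Without Sham replicate 4 the median of the group was 0.022.

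Active zone scaffolds and priming factors were the largest group, with 9 of 12 genes lower in ICSS pools by their means and a median difference of -0.078, and it was -0.080 without Sham replicate 4. Unc13c had -1.38, -1.41, -1.62 and -1.66 in ICSS pools, against -0.89, -1.18, -1.07 and -1.13 in Sham pools. Every ICSS pool lay below every Sham pool, and leaving out any 1 pool kept the difference between -0.49 and -0.39. The difference was -0.45 (SE 0.088, limma adjusted p = 0.123), a 1.36-fold lower level in ICSS pools, and -0.47 (limma adjusted p = 0.198) without Sham replicate 4. It had the smallest p of the 54 members and rested on 1 feature. Unc13b, encoding Munc13-2, differed by -0.21 (SE 0.099, limma adjusted p = 0.417) and Unc13a by -0.076 (SE 0.058, limma adjusted p = 0.612). Whether the 3 Munc13 genes differed from each other in their response was not tested.

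Rims2, encoding a RIM scaffold that recruits calcium channels, stood at -0.63, -0.48, -0.66 and -0.69 in ICSS pools, against -0.52, -0.57, -0.38 and -0.27 in Sham pools. ICSS replicate 2 lay among the Sham pools. The difference was -0.18 (SE 0.079, limma adjusted p = 0.379). Rims1, its close relative, differed by 0.058 (SE 0.086, limma adjusted p = 0.812). Bsn and Pclo, encoding the scaffolds Bassoon and Piccolo, had the lower means in ICSS pools as well, by -0.19 (SE 0.14, limma adjusted p = 0.606) for Bsn and -0.13 (SE 0.081, limma adjusted p = 0.524) for Pclo. Among the remaining members of the group differences lay between -0.080 for Erc2 and 0.083 for Rims3.

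All 5 genes of vesicle recycling had the lower mean in ICSS pools, with a median difference of -0.13. Dnm1 was at 0.33, 0.34, 0.26 and 0.45 in ICSS pools, against 0.43, 0.45, 0.56 and 0.63 in Sham pools. Only ICSS replicate 4 reached into the Sham range, and all 10 features were lower, by -0.25 to -0.085. These 10 features are annotated to 1 transcript and read the same pools, so they are not independent. The difference was -0.18 (SE 0.067, limma adjusted p = 0.330). Synj1, encoding the lipid phosphatase synaptojanin that uncoats vesicles, differed by -0.13 (SE 0.063, limma adjusted p = 0.420), with all 4 features lower. Amph, the amphiphysin gene, differed by -0.20 (SE 0.11, limma adjusted p = 0.485) and by -0.087 without Sham replicate 4, where it stood at 0.48, against -0.058 to 0.15 in the other Sham pools. Without that pool the median of the group was -0.087, with 4 of 5 genes lower.

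**Figure D5:**
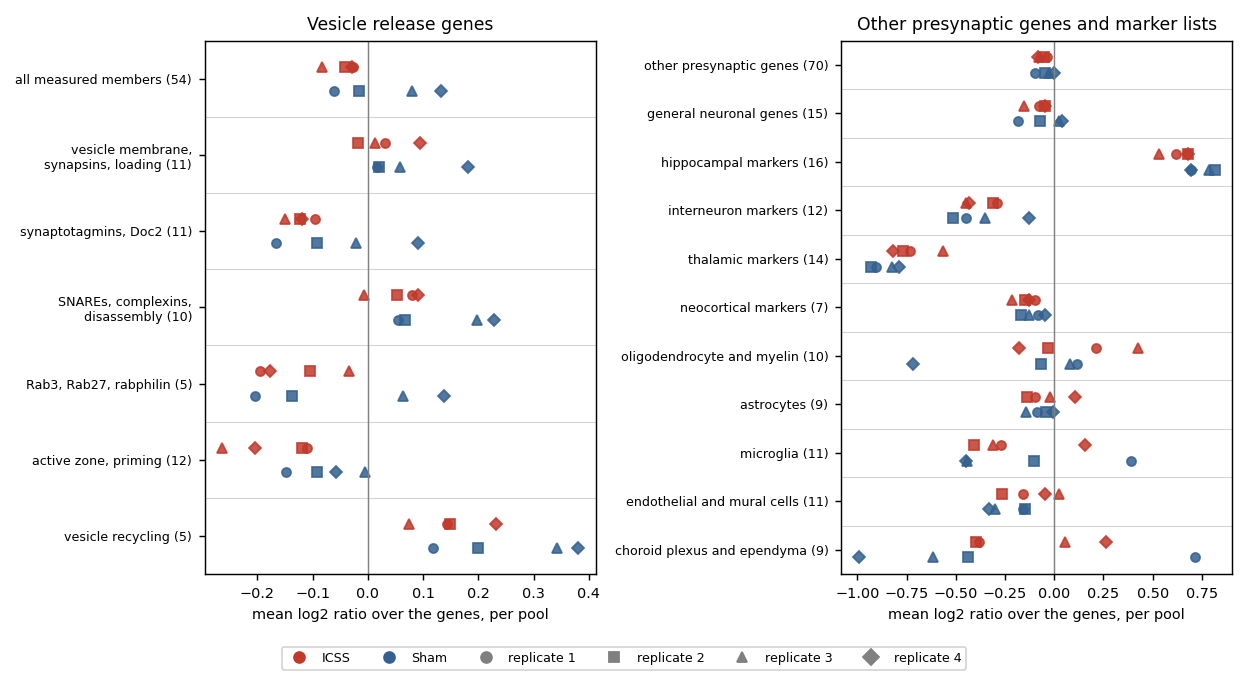
Mean log2 ratio per pool over all measured members and each role group (left), and over other presynaptic genes and marker lists (right), with the number of genes in brackets. ICSS pools are red and Sham pools blue, with marker shapes for replicate numbers. Sham replicate 4 is the highest Sham pool for all members together (0.13) and the lowest for oligodendrocyte and myelin markers (-0.72).

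Other presynaptic genes, a list of 80 symbols with 70 measured, gave little shift. It covers further SNAREs, clathrin and its adaptors, proton pump subunits, presynaptic scaffolds such as Cask, and the neurexin adhesion genes. Of the 70, 38 had the lower mean in ICSS pools, the median difference was -0.016, and none passed the limma threshold in either direction. At an unadjusted limma p below 0.05 lay 6 lower and 5 higher genes of the 70, against 6.36% lower and 6.79% higher among named genes. Sh3glb2, encoding an endophilin-related protein, stood at -0.37, -0.32, -0.37 and -0.38 in ICSS pools, against -0.13, -0.13, 0.016 and 0.062 in Sham pools. Every ICSS pool lay below every Sham pool, by -0.315 in the means (SE 0.062, limma adjusted p = 0.123). Ppfia4, a liprin-alpha gene, differed by -0.26 (SE 0.058, limma adjusted p = 0.153). On the other side Stxbp6, encoding amisyn, differed by 0.20 (SE 0.056, limma adjusted p = 0.210) and Stxbp5l, encoding a second tomosyn, by 0.21 (SE 0.070, limma adjusted p = 0.269). The median of the members, at -0.064, was not tested against that of this list.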

How the data were processed

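Each array had 45220 features with a log2 ratio as deposited by the authors. Per the labels, Cy5 marks the pool and Cy3 the reference on every array, and the ratio was taken as Cy5 over Cy3. Limma is named without a version in the submitters' processing notes, and the sources used here do not give background correction, normalization, filters or the base of the logarithm, which was taken as 2. Features were named through the platform annotation, and symbols were brought up to date by Entrez identifier with the gene table of GRCr8 (25306 of 25353 features with 1 symbol matched, and 19819 had none). Features of a gene were averaged, which gave 34738 units, 14871 of them named genes. Several features of a gene read the same RNA pools, so agreement among them is not replication. ICSS was compared with Sham by limma 3.58.1 in R 4.3.3 (lmFit, eBayes, no covariates, two-sided), p-values adjusted by Benjamini-Hochberg across the 34738 units, and a threshold of 0.05. The 95% intervals used the moderated SE. The fit was tested on simulated data with independent noise in each unit. That simulation holds no shift of a pool shared by many genes, so it does not cover such shifts. The labels call the pools biological replicates. Over all units together, replicate numbers showed no pairing of the pools, a check that cannot exclude a pairing in single genes. Once the group mean of each unit was subtracted, same-numbered ICSS and Sham pools correlated at -0.053 to 0.058.

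Members, role groups and lists were chosen with earlier results of these data known. Genes named were the 3 of smallest p in each role group, 11 core genes, the 5 highest and 5 lowest members against the reference, the 2 other presynaptic genes of smallest p in each direction and 4 tissue checks (Neurod6, Slc17a6, Gad1, Mbp). Sncg of the other presynaptic genes and the members Bsn, Pclo, Erc2, Rims3, Cplx1, Sh3gl2 and Vamp1 were named after their values were seen. The lists of hippocampal, thalamic, neocortical, astrocyte, microglial, endothelial and choroid plexus markers appear in the plot of pool means. Alternatives covered scaling, a replicate block, array weights, moderation, the unit of the test and single pools left out. Promoter sequences are from RefSeq, and 13 members had none listed.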

Additional observations from a re-analysis of the deposited data

Results flagged for a closer look

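In 110 groups of 4 pools (54 members and their mean, in each group), 6 had a pool whose gap to the others was large for the range of its group by Dixon's criterion, where chance flags about 1 in 20. In Sham replicate 4, Syn1 stood at 0.64, against 0.26 to 0.32 in the other Sham pools, and Cplx1 at 0.56, against -0.38 to -0.27. In ICSS replicate 3, Snap25 stood at 0.17, against 0.35 to 0.38 in the other ICSS pools, Synj1 at 0.033, against 0.13 to 0.14, and Rab3b at -0.447, against -0.82 to -0.78. In ICSS replicate 4, Slc17a7 stood at 0.77, against 0.48 to 0.52 in the other ICSS pools.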

How the results depend on the processing

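No member was called in any of 17 alternatives, 16 of them planned and 1 (ICSS replicate 1 and Sham replicate 4 both left out) chosen after seeing the data. The lowest limma adjusted p, 0.056, was that of Unc13c with quantile normalization, and over its alternatives it lay between 0.056 and 0.34. The number of units called depended on single pools, from 0 without ICSS replicate 2 or 3 (3455 and 3311 units at an unadjusted p below 0.05) to 153 without ICSS replicate 1. It was 1 without Sham replicate 1 or 3, 6 without ICSS replicate 4 and 10 without Sham replicate 2, against 16 with all pools, and it was 34 with array weights, 53 with each feature as its own unit and 131 with both pools left out. Leaving out 1 pool moved the median difference of the members between -0.10 and -0.018, their mean difference between -0.11 and -0.046, the number of lower members between 30 and 42, the number with groups apart between 2 and 7, and the calls among other presynaptic genes between 0 and 1. The count of members with groups apart was 7 without ICSS replicate 4 or Sham replicate 1, 5 without Sham replicate 2, and 4 with features as units. The share over named genes is not given for these settings, so these counts are not a result about the members. Without Sham replicate 4 that share was 11.8%, against 8.98% with all pools.

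Signs were followed through every alternative for 24 members, the core genes and those of smallest p in each role group, a choice that favours stable signs, and 18 of them kept theirs. Over all 54 members, 12 of the 40 lower ones turned higher without Sham replicate 4 alone, among them Cplx1 at 0.060, Doc2a at 0.093 and Syt2 at 0.025. Leaving out 1 pool gave Rab27b -0.087 to 0.014, Rab3b -0.30 to 0.054, Snap25 -0.13 to 0.0090, Syn1 -0.12 to 0.018 and Syt1 -0.042 to 0.030. With both pools left out Rab3b was at 0.089, Syn1 at 0.035 and Rims1 at -0.013. With the replicate number as a block, 0 units were called over all units (4543 at an unadjusted p below 0.05), 9 members had an unadjusted p below 0.05 and no member was called. Dim spots could not be filtered without intensities.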

Other observations

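Sncg, the gamma-synuclein gene, chosen after its values were seen, was the gene of the other presynaptic list with the largest difference. It stood at -0.96, -0.80, -0.59 and -0.97 in ICSS pools, against -0.86, 0.60, 0.67 and 0.51 in Sham pools. Sham replicate 1 lay among the ICSS pools and the other 3 Sham pools far above them. The difference was -1.06 (SE 0.30, limma adjusted p = 0.204) with all pools. Without Sham replicate 1 it was -1.42 (SE 0.100, limma adjusted p = 0.00676), and Sncg was then the 1 unit called over the whole array. That call depends on leaving out the Sham pool that lay among the ICSS pools, and Sncg was called in no other setting. Without Sham replicate 4 the difference was -0.97 (SE 0.32, limma adjusted p = 0.359).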
